A study of Mus musculus with 6 samples.

Results

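The genes described here are 54 genes of mitosis, the stage in which a cell parts its copied chromosomes and divides. They form a list of kinetochore, spindle and cytokinesis genes, and no cutoff on a measured value was used to pick them. All 54 were found among the 17558 genes of the deposited table, and all 54 were among the 12643 genes that passed the filter on low counts and were tested. They were placed in 10 functions, from the kinases that start mitosis to the proteins that cut the daughter cells apart.

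Their messages were measured in C2C12 cells, an immortalized mouse myoblast line whose cells leave the cell cycle and fuse into myotubes when serum is lowered. Every culture was harvested 48 h after the switch to medium with 2% horse serum and an insulin, transferrin and selenium supplement. Control cells stably carried a scrambled hairpin RNA (shScr), and the other cells stably carried a hairpin directed at Pkm1 (shPkm1) or at Pkm2 (shPkm2), which are splice forms of pyruvate kinase made from the gene Pkm. Each of the 3 groups had 2 libraries, and the genotype label was wild type (WT) in all of them, so the groups share the parent line, a stable hairpin and the differentiation medium. The labels do not say whether a stable line was 1 clone or a pool, or whether the libraries of a group came from separate cultures, so p-values measure only the spread between these libraries.

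Libraries held between 18216896 and 19796036 estimated counts, and the biological coefficient of variation over all genes was 0.0851. The targeted gene Pkm stood at 3019 and 3473 CPM (counts scaled to library size and composition) in shScr, 1998 and 2186 in shPkm1, and 3658 and 3794 in shPkm2. The Pkm2 isoform had 1073 and 1517 TPM (a level scaled to transcript length) in shScr, 1278 and 1379 in shPkm1, and 2700 and 2630 in shPkm2. So the isoform named by the shPkm2 label was not reduced there, and that group is called here the shPkm2-labelled libraries. The Pkm1 isoform had 546 and 589 TPM in shScr, 243 and 218 in shPkm1, and 254 in both shPkm2-labelled libraries. The control libraries were the least alike for the mitotic genes: library 2 of shScr was above library 1 for 50 of 54 genes, by a median of 0.29 on the log2 scale, against a median of 0.00 in shPkm1 and -0.03 in the shPkm2-labelled libraries.

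In a dividing cell, cyclin B with its kinase starts mitosis, condensin and topoisomerase compact the chromosomes, and the kinetochore, a layered protein plate on the centromere, ties each chromosome to spindle microtubules. Kinetochores that are not yet attached keep the spindle checkpoint active, which holds back Cdc20 and the anaphase-promoting complex. Once this complex is free, it marks securin and cyclin B for destruction, sister chromatids part, and the central spindle and a contractile ring complete cytokinesis. Muscle cells that fuse have left the cell cycle for good, so mitotic messages are low in myotubes and high in myoblasts that still divide.

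The mitotic genes were lowest in shScr, higher in shPkm1 and highest in the shPkm2-labelled libraries. Together they had 757 and 1020 TPM in shScr, 1734 and 1682 in shPkm1, and 5193 and 4811 in the shPkm2-labelled libraries, which is 0.0757% to 0.102%, 0.168% to 0.173% and 0.481% to 0.519% of all TPM. These sums did not overlap between groups. For 47 of the 54 genes (87%) both shScr libraries lay below both shPkm1 libraries, and these below both shPkm2-labelled libraries. The same order was found for 1861 of the 12643 genes tested (14.7%).

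**Figure D1:**
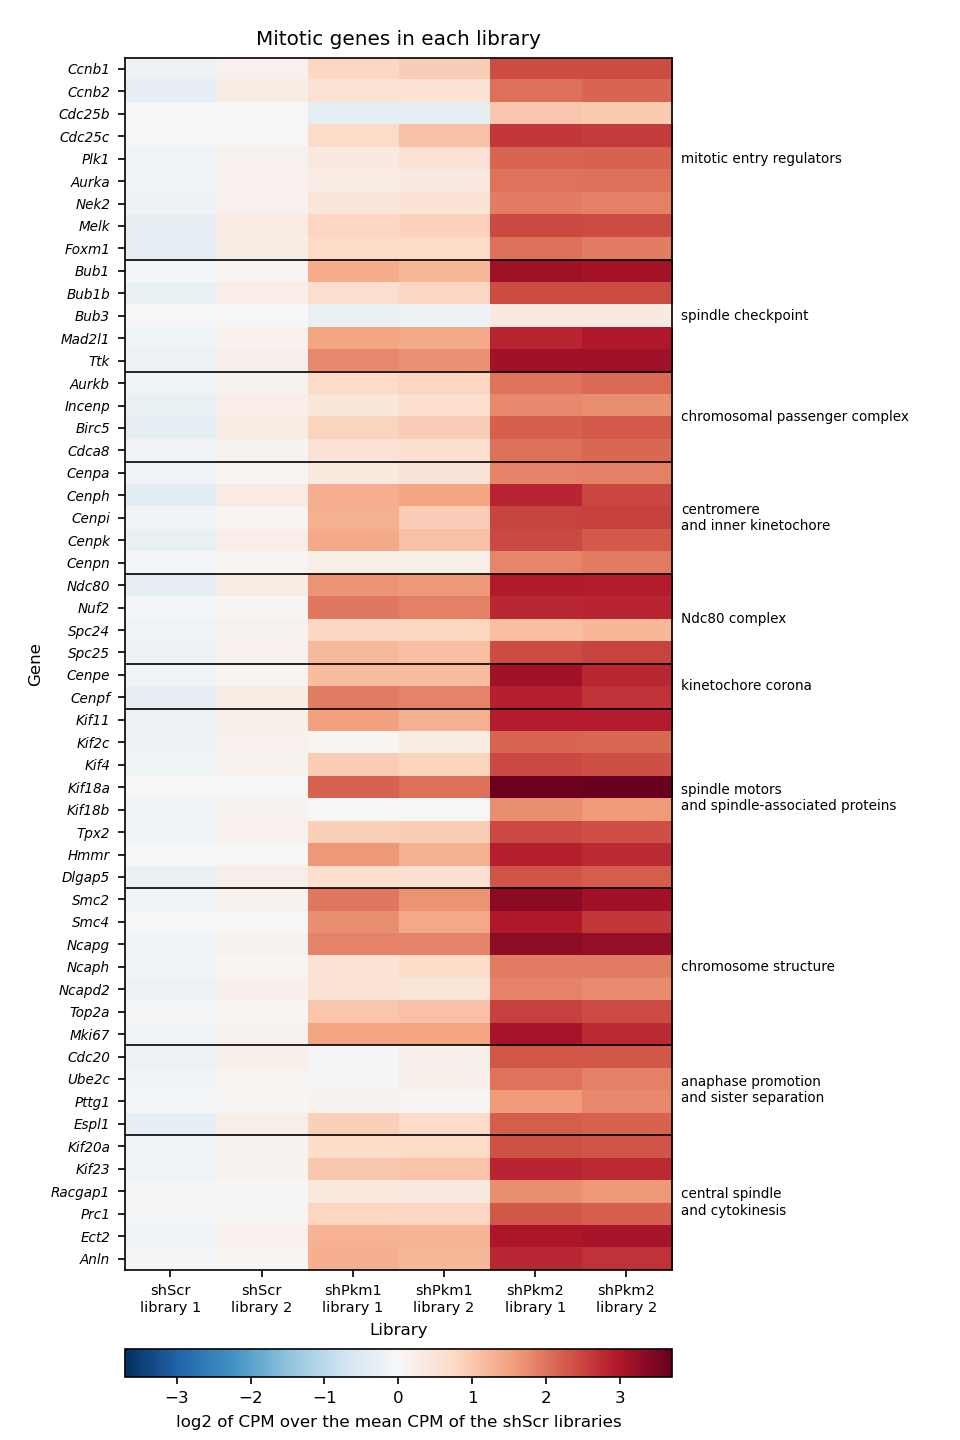
Heat map of the 54 mitotic genes (rows, grouped by function) in the 6 libraries (columns). Colour gives log2 of CPM over the mean CPM of the shScr libraries. Both shPkm2-labelled libraries are darker than the rest in nearly every row, with Bub3 the palest at a log2 fold change of 0.34.

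Between shPkm1 and shScr, 46 of 54 genes (85.2%) were higher in edgeR's quasi-likelihood test with Benjamini-Hochberg adjustment, while 31.8% of all tested genes were higher. Another 2 genes were lower, where 31.4% of all tested genes were, and 6 genes did not pass the test. The median log2 fold change of the 54 genes was 0.82, or 1.76-fold, with single genes between -0.35 and 2.09. Over all tested genes the median was 0.00. Both shPkm1 libraries lay above both shScr libraries for 47 of the 54 genes, as they did for 40.7% of all tested genes. At least a 2-fold rise was reached by 22 of the 54, against 12.6% of all tested genes. That number was 35 on the TPM scale and 13 once a trend with the GC content of the genes was removed.

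Between the shPkm2-labelled libraries and shScr, all 54 genes were higher in the edgeR test, where 33.9% of all tested genes were. Their median log2 fold change was 2.38, or 5.19-fold, beside 0.01 over all tested genes. The groups did not overlap for any of the 54 genes, where 42.2% of all tested genes lay apart in that direction. The rise was at least 2-fold in 52 genes and at least 4-fold in 40, against 14.1% and 3.57% of all tested genes. The shPkm1 and shPkm2 contrasts share the control libraries, so the direct contrast of the 2 hairpin groups is given beside them. In it all 54 genes were again higher in the shPkm2-labelled libraries, where 25.7% of all tested genes were, and the median was 1.45, or 2.73-fold. At least a 2-fold difference was reached by 50 of them, against 7.07% of all tested genes. All 54 lay apart in this direction, against 40.2% of all tested genes.

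Markers of muscle cells changed as well, mostly in the opposite direction to the mitotic genes. The 12 myotube markers, among them Myog, Ckm and Acta1, had a summed level of 46251 and 34246 TPM in shScr, 15441 and 16728 in shPkm1, and only 360 and 371 in the shPkm2-labelled libraries. All 12 were lower in both contrasts against shScr and in the direct contrast in the edgeR test, which called 31.4%, 34.2% and 27.3% of all genes tested lower in shPkm1 minus shScr, shPkm2 minus shScr and shPkm2 minus shPkm1. The 6 myoblast markers summed to 3343 and 3635, 2909 and 3080, and 1298 and 1195 TPM in the order shScr, shPkm1 and shPkm2-labelled. Of these 6, 5 were called lower in each contrast against shScr, where 31.4% and 34.2% of all tested genes were. Myf5 was the 1 of them that rose in the shPkm2-labelled libraries against shScr. In the direct contrast 4 were lower and 2 higher, against 27.3% and 25.7% of all tested genes. In these bulk RNA samples, a higher share of dividing cells and more mitotic RNA in each cell cannot be told apart. Of markers of other cells, the 4 endothelial genes were each under 1 TPM in every library, the 3 adipocyte genes in the table summed to at most 1.06 TPM, and Cd68 and Csf1r of macrophages to 0.82 and 1.72 TPM in shScr, 4.11 and 3.10 in shPkm1, and 3.06 and 3.74 in the shPkm2-labelled libraries. Both macrophage genes were called higher in shPkm1 minus shScr, where 31.8% of all tested genes were, and in shPkm2 minus shScr Cd68 was called higher (1.22) and Csf1r lower (-1.81). Cartilage markers summed to 13.1 and 15.4 TPM, 15.5 and 15.3, and 36.8 and 31.3 in the same order, nearly all of it Sox9, with Acan, Col2a1 and Comp each under 1 TPM. Sox9 was called lower in shPkm1 minus shScr, at -0.31, and higher in shPkm2 minus shScr, by 0.81, and in shPkm2 minus shPkm1, by 1.11. The part of all these markers in the mitotic result was not tested.

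Because the genes moved together, their promoters were read for the motifs known from cell cycle genes. These are the cell cycle homology region, searched as TTTGAA or TTCGAA, which the DREAM complex and the B-Myb-MuvB and FOXM1 factors use, and the CCAAT box of the factor NF-Y, both on either strand. Promoters of 45 of the 54 genes, 50 in all, were matched by gene identifier in a RefSeq table of the build GRCm38.p6, each from 250 bases before the annotated start to 50 bases into the transcript. TTTGAA or TTCGAA was in 70% of the 50 promoters and in 15.1% of the 17282 promoters of genes in the deposited table. Within 50 bases of the start the shares were 62% and 3.81%. CCAAT was in 80% against 38%, and both kinds of motif in 64% against 6.38%. Of the 45 genes, 32 had a homology region match, 35 had a CCAAT, 29 had both and 7 had neither. Where a CCAAT lay upstream of a homology region match near the start, which was so in 27 genes, the median distance between their first bases was 35, with a range of 9 to 153, and in 16 genes it was 20 to 50. None of these pairs overlapped, and in Cdca8 another CCAAT match, downstream, overlapped the homology region match by 1 base. Such a match describes letters and is not a measured binding site.

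The 4 promoters printed here belong to genes the results turn on: Cdc20 differed most between the hairpin groups, Cenpf and Ttk already rose steeply in shPkm1, and Kif18a had the largest rise of all 54 but holds neither motif in this window. They are given 5′ to 3′ in the direction of the gene, and capitals mark TTTGAA, its reverse strand form TTCAAA, and CCAAT. The first transcribed base is the 251st letter and is counted as 0.
Cdc20, chr4:118437294-118437593, minus strand: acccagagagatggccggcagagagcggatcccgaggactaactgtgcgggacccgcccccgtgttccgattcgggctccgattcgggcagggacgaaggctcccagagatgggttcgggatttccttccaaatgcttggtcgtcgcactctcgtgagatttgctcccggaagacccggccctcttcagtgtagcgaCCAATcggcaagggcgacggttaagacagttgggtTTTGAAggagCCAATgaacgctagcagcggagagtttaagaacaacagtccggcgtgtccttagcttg
Cenpf, chr1:189688037-189688336, minus strand: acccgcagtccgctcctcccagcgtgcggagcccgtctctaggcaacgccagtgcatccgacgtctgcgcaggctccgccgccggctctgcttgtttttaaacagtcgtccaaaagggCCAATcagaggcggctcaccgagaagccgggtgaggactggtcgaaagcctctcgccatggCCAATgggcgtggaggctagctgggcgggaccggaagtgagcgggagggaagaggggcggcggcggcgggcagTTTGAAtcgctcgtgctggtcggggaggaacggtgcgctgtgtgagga
Ttk, chr9:83834439-83834738, plus strand: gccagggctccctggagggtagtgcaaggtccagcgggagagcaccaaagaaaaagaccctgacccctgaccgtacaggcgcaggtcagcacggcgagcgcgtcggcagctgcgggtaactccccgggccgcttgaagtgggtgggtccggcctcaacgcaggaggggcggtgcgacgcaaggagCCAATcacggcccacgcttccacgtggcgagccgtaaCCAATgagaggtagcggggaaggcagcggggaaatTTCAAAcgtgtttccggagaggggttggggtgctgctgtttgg
Kif18a, chr2:109280488-109280787, plus strand: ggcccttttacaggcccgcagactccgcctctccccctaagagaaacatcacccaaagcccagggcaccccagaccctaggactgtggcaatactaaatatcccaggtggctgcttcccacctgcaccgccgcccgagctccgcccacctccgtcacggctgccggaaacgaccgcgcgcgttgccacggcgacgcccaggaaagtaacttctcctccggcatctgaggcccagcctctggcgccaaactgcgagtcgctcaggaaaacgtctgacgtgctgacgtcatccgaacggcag
In Cdc20 the homology region match begins at -18, with CCAAT at -53 and -8. Cenpf has its match at 2 and CCAAT at -132 and -71, and Ttk has TTCAAA at 7 and CCAAT at -65 and -28. So these 3, which were picked for printing, each hold a CCAAT upstream of a homology region match close to the start. The distance is 35 bases in Cdc20 and Ttk and 73 in Cenpf. Nuf2, which rose by 1.91 in shPkm1, holds neither motif in this window and is not printed.

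**Figure D2:**
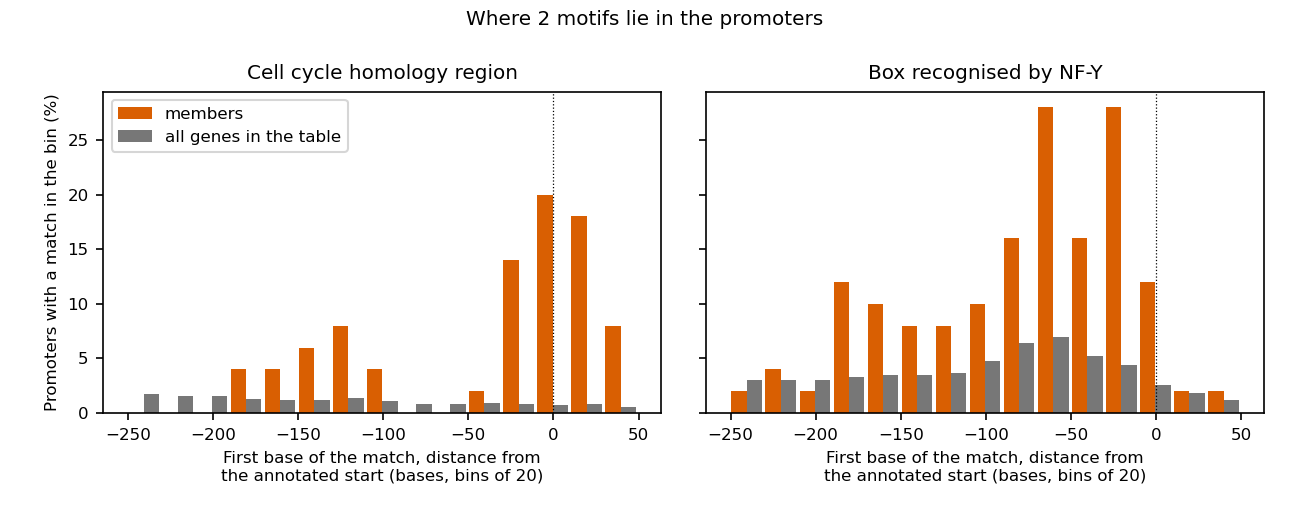
Share of promoters (y axis, %) with a match whose first base falls in each 20-base bin of distance from the annotated start (x axis), for 50 promoters of mitotic genes (orange) and 17282 promoters of genes in the table (grey). Homology region matches (left) gather from 30 bases before to 50 bases after the start, reaching 20% of member promoters in a bin, and the NF-Y box (right) lies mostly upstream of it.

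The medians of genes with both motifs were the smaller ones in both contrasts against shScr and slightly the larger one in the direct contrast. The 29 genes with both motifs had a median log2 fold change of 0.77 in shPkm1 and 2.29 in the shPkm2-labelled libraries against shScr, and the 16 without both had 1.13 and 2.47. Between the shPkm2-labelled and the shPkm1 libraries the medians were 1.48 and 1.43. These values are a description with no test. Single genes lay between 0.34 and 3.27 with both motifs and between 1.67 and 3.65 without both in the shPkm2-labelled libraries.

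Mitotic entry was represented by 9 genes. These are the B cyclins Ccnb1 and Ccnb2 and the phosphatases Cdc25b and Cdc25c that switch on the cyclin's kinase. The others are the kinases Plk1, Aurka, Nek2 and Melk, and Foxm1, a transcription factor of mitotic genes. In shPkm1 8 of the 9 were higher and 1 lower (median log2 fold change 0.52), where 31.8% and 31.4% of all tested genes were. In the shPkm2-labelled libraries all 9 were higher (median 2.09), where 33.9% of all tested genes were. Ccnb1 (chromosome 13, 100778739 to 100786486; gene coordinates here are those of GENCODE on GRCm38) had 20.1 and 25.5 CPM in shScr, 38.6 and 42.5 in shPkm1, and 122 and 121 in the shPkm2-labelled libraries. Its groups did not overlap, and its log2 fold changes were 0.83 and 2.41 (SE 0.121 in both, edgeR adjusted p 6.08e-05 and 1.47e-09). Plk1, a kinase at work from centrosome to midbody, had 36.3 and 45.1 CPM in shScr, 52.0 and 58.8 in shPkm1, and 182 and 184 in the shPkm2-labelled libraries. The steps of Plk1 were 0.44 (edgeR adjusted p 0.00541) and 2.16 (edgeR adjusted p 3.62e-09), and the smaller one lost its call without library 2 of shPkm1 (edgeR adjusted p 0.0738).

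The Cdc25 phosphatases lay at the opposite ends of this function. Cdc25c had 3.87 and 3.90 CPM in shScr, 6.39 and 8.29 in shPkm1, and 23.96 and 23.5 in the shPkm2-labelled libraries, log2 fold changes of 0.92 and 2.61 with edgeR adjusted p 0.000557 and 1.12e-08. Cdc25b (chromosome 2, 131186436 to 131198511) had 54.3 and 53.3 CPM in shScr, 42.9 and 41.6 in shPkm1 and 108 and 106 in the shPkm2-labelled libraries. In shPkm1 its log2 fold change was -0.35 (SE 0.0949, edgeR adjusted p 0.00616), and rose by 0.99 in the shPkm2-labelled libraries (edgeR adjusted p 6.82e-07). The lower value in shPkm1 depends on the scaling: it was -0.15 with library totals, -0.18 with the GC trend removed and 0.04 on the TPM scale, each without a call, and its call was also lost without library 2 of shPkm1 (edgeR adjusted p 0.0527). Aurka, a spindle pole kinase, rose by 0.30 in shPkm1 (edgeR adjusted p 0.0382), a call lost in 7 of 17 alternatives. The value was 0.15 without library 1 of shScr, 0.47 without library 2, 0.49 with library totals and 0.67 on the TPM scale, the last 3 called. Ccnb2 rose by 0.52, which was 0.26 and no call without library 1 of shScr, 0.86 without library 2 of shScr (edgeR adjusted p 2.15e-07), and not called without library 1 of shPkm1.

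Chromosome structure is represented by the condensin genes Smc2, Smc4, Ncapg, Ncaph and Ncapd2, by Top2a, which untangles DNA, and by Mki67, whose protein coats mitotic chromosomes and marks dividing cells. All 7 were higher in each contrast, with medians of 1.46 in shPkm1 and 2.80 in the shPkm2-labelled libraries. Of all tested genes, 31.8% were higher in shPkm1 minus shScr, 33.9% in shPkm2 minus shScr and 25.7% in shPkm2 minus shPkm1. Mki67 (chromosome 7, 135689784 to 135716450) had 67.7 and 81.0 CPM in shScr, 203 and 206 in shPkm1, and 613 and 501 in the shPkm2-labelled libraries, with log2 fold changes of 1.46 (edgeR adjusted p 5.43e-07) and 2.90 (edgeR adjusted p 5.31e-10). The groups of Mki67 lay well apart. Ncapg, a condensin I subunit, went from 5.32 and 6.38 CPM to 21.03 and 20.7, and then to 57.8 and 55.9. This was the largest rise of the function in this fit, 1.83 and 3.27 (edgeR adjusted p 1.03e-07 and 1.20e-10). With the GC trend removed Ncapg was at 1.30 and 2.61, just below Mki67 at 1.32 and 2.66.

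Subunits of condensin I differed in the size of their rise. Ncapd2, another subunit of the same complex, went from 47.1 and 62.8 CPM to 78.0 and 75.6, and then to 195 and 185. Its log2 fold changes were 0.48 (edgeR adjusted p 0.00452) and 1.79 (edgeR adjusted p 4.08e-08), and the first was 0.29 without library 1 of shScr and 0.85 on the TPM scale, both called. Smc2 and Smc4, the ATPase pair shared by both condensins, rose by 1.80 and 1.59 in shPkm1, and Ncaph by 0.61. Between the hairpin groups the 7 genes were close together, from 1.21 to 1.44, so the unequal steps lie between shScr and shPkm1. The GC content of Smc2, Smc4 and Ncapg is 39.7%, 40.2% and 39.8%, and that of Ncaph and Ncapd2 48.3% and 54.0%.

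The centromere and inner kinetochore were represented by Cenpa, the histone that marks centromeres, and by Cenph, Cenpi, Cenpk and Cenpn of the network built on it. In shPkm1 4 of 5 were higher and in the shPkm2-labelled libraries all 5 were, against 31.8% and 33.9% of all tested genes. The medians of the 5 genes were 1.12 and 2.33. Cenph had 1.90 and 3.11 CPM in shScr, 6.34 and 6.88 in shPkm1, and 17.7 and 13.8 in the shPkm2-labelled libraries, with log2 fold changes of 1.38 (SE 0.235, edgeR adjusted p 0.000208) and 2.64 (edgeR adjusted p 2.04e-07). Cenpa had 16.04 and 18.9 CPM in shScr, 22.3 and 24.2 in shPkm1, and 62.6 and 63.1 in the shPkm2-labelled libraries. Both genes kept the 3 groups apart, Cenpa with a smaller step in shPkm1 of 0.41 (edgeR adjusted p 0.00859), lost without library 2 of shPkm1 (edgeR adjusted p 0.0707). Cenpn, which binds the Cenpa nucleosome, did not pass the test in shPkm1: 9.76 and 10.6 CPM in shScr stood against 11.9 and 11.8, a log2 fold change of 0.22 (edgeR adjusted p 0.153). On the log2(TPM + 1) scale, where the median of all tested genes was 0.31, the same contrast gave 0.55 and passed (limma adjusted p 0.00383). In the shPkm2-labelled libraries Cenpn had 35.9 and 38.4 CPM. Cenpk was called in shPkm1 at 1.23, but with the GC trend removed it was at 0.47 (edgeR adjusted p 0.13).

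The Ndc80 complex, 4 proteins that grip the microtubule, rose in all its members in each contrast, but not in step. Of all tested genes, 31.8%, 33.9% and 25.7% were higher in the 3 contrasts. The gene Ndc80 itself had 4.69 and 7.29 CPM in shScr, 19.1 and 18.1 in shPkm1, and 45.6 and 45.2 in the shPkm2-labelled libraries. Its log2 fold changes were 1.63 and 2.91 (edgeR adjusted p 2.38e-06 and 3.15e-09). Its partner Nuf2 went up by 1.91 in shPkm1, and by 0.90 more between the hairpin groups. Spc24 (chromosome 9, 21755434 to 21760446), on the side that faces the inner kinetochore, had 14.6 and 17.3 CPM in shScr, 27.05 and 27.4 in shPkm1, and 34.7 and 37.4 in the shPkm2-labelled libraries. It was the member with the smallest difference between the hairpin groups of all 54 genes, 0.40 (SE 0.111, edgeR adjusted p 0.00788), against 1.29 for Spc25, which pairs with it in the complex. That call for Spc24 was lost without library 1 of shPkm1 (edgeR adjusted p 0.0626) or library 2 of those labelled shPkm2 (edgeR adjusted p 0.0932).

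In TPM the 4 genes of the complex lay between 2.83 and 19.95 in shScr and between 38.7 and 79.0 in the shPkm2-labelled libraries. Spc24 was the highest of the 4 in both shScr and shPkm1, with means of 17.5 ± 3.49 and 39.2 ± 0.523 TPM (SD, n = 2). In the shPkm2-labelled libraries Spc25 was highest, with 78.9 ± 0.233 TPM, and Spc24 had 54.4 ± 0.191.

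**Figure D3:**
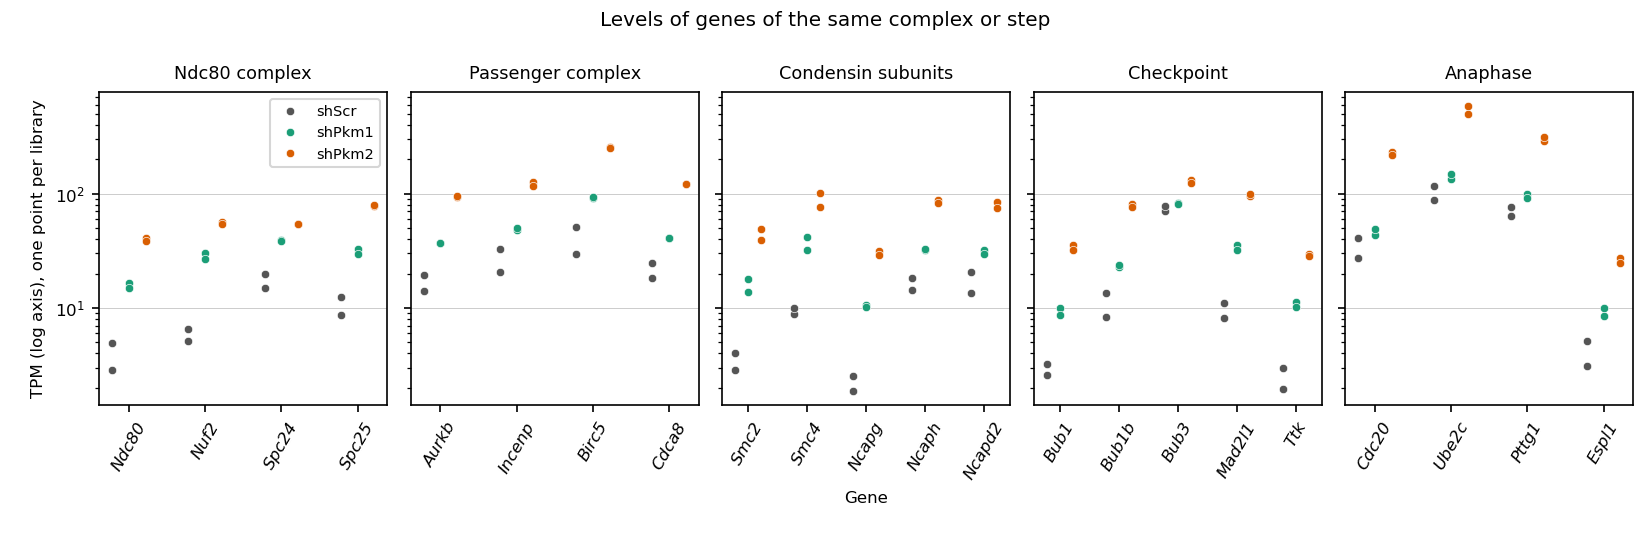
TPM (log axis) of genes of the same complex or step, with 1 point per library in shScr (grey), shPkm1 (green) and shPkm2 (orange). Spc24 shows a small gap between green and orange, with means of 39.2 and 54.4 TPM, and Bub3 the narrowest span from grey to orange, while Cdc20, Ube2c and Pttg1 have grey and green close together and orange far above.

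The kinetochore corona genes Cenpe, a microtubule motor, and Cenpf were higher in each contrast, against 31.8%, 33.9% and 25.7% of all tested genes. Cenpe had 13.9 and 16.4 CPM in shScr, 33.1 and 33.8 in shPkm1, and 129 and 106 in the shPkm2-labelled libraries, log2 fold changes of 1.14 and 2.95 (edgeR adjusted p 7.19e-06 and 4.31e-10). Cenpf, whose promoter is among those printed, had 9.76 and 15.03 CPM in shScr, 46.8 and 44.6 in shPkm1, and 91.2 and 78.4 in the shPkm2-labelled libraries. Its step in shPkm1, 1.87 (edgeR adjusted p 5.32e-07), was larger than that between the hairpin groups, 0.89 (edgeR adjusted p 0.00015). In Cenpe the order was the other way round, with 1.14 and then 1.81.

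The spindle checkpoint was represented by the kinases Bub1 and Ttk, the kinase-like Bub1b, and Bub3 and Mad2l1, which with Bub1b form the inhibitor of Cdc20. The median for the 5 genes was 1.31 in shPkm1 and 2.88 in the shPkm2-labelled libraries, above the medians of all 54 genes, 0.82 and 2.38, while Bub1b lay close to those medians and Bub3 below them. Ttk had 4.31 and 5.76 CPM in shScr, 17.3 and 16.4 in shPkm1, and 43.6 and 44.5 in the shPkm2-labelled libraries, with log2 fold changes of 1.73 (SE 0.148, edgeR adjusted p 5.13e-07) and 3.12 (SE 0.141, edgeR adjusted p 5.46e-10). Bub1 rose by 1.31 and 3.10, Mad2l1 by 1.43 and 2.88, and Bub1b by 0.72 and 2.41.

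Bub3 (chromosome 7, 131560367 to 131571895), which brings Bub1 and Bub1b to kinetochores, stood apart from its partners. It had 110 and 107 CPM in shScr, 89.98 and 93.99 in shPkm1, and 137 in both shPkm2-labelled libraries. The groups did not overlap, and the log2 fold changes were -0.23 in shPkm1 (SE 0.0933, edgeR adjusted p 0.0420) and 0.34 in the shPkm2-labelled libraries (SE 0.0926, edgeR adjusted p 0.00509). Both values depend on the processing. The first lost its call in most alternatives, among them the removal of any 1 library other than library 2 of shScr, and was 0.15 on the TPM scale, but with the GC trend removed it was a larger, called fall of -0.60 (edgeR adjusted p 0.000218). The second was -0.16 with the GC trend removed (edgeR adjusted p 0.152), but 0.67 with library totals and 0.79 on the TPM scale, both called. The difference between the hairpin groups, 0.58 (edgeR adjusted p 0.000162), was called in each of the 17 alternatives. In the controls Bub3 was the second most abundant of the 54 genes, with 73.9 ± 4.86 TPM.

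The chromosomal passenger complex corrects wrong attachments through the kinase Aurkb and holds it in place with Incenp, Birc5 (survivin) and Cdca8 (borealin). Its 4 genes were higher in each contrast, against 31.8%, 33.9% and 25.7% of all tested genes. They lay close together, from 0.51 to 0.86 in shPkm1 and from 1.75 to 2.24 in the shPkm2-labelled libraries. Aurkb had 20.9 and 25.5 CPM in shScr, 38.02 and 40.5 in shPkm1, and 92.6 and 99.6 in the shPkm2-labelled libraries, log2 fold changes of 0.75 and 2.05 (edgeR adjusted p 9.75e-05 and 4.74e-09). Birc5 had 21.1 and 32.6 CPM in shScr, 47.3 and 50.4 in shPkm1, and 125 and 130 in the shPkm2-labelled libraries. The groups of both genes were apart, with the 2 control libraries of Birc5 farthest from each other. Incenp, the scaffold, rose least of the 4 against shScr, from 49.3 and 70.2 CPM to 80.3 and 89.7 and to 205 and 197, with 0.51 (edgeR adjusted p 0.00652, or 0.0771 without library 2 of shPkm1) and 1.75 (edgeR adjusted p 1.56e-07). The first of these was 0.28 without library 1 of shScr and 0.79 without library 2 of shScr, both called.

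Spindle motors and spindle-associated proteins held both the largest rise and one of the smallest in shPkm1. Kif18a (chromosome 2, 109280738 to 109341749), a kinesin that dampens chromosome oscillation, had 1.27 and 1.24 CPM in shScr, 5.64 and 5.11 in shPkm1, and 15.6 and 15.98 in the shPkm2-labelled libraries. Its log2 fold changes, 2.09 (SE 0.215, edgeR adjusted p 2.75e-06) and 3.65 (SE 0.194, edgeR adjusted p 2.62e-09), were the largest of the 54 genes in this fit. It was the 1 gene of the 54 with at least a 4-fold rise in shPkm1, against 4% of all tested genes. This depends on the scaling: that value was 1.37 on the log2(TPM + 1) scale, and 1.47 with the GC trend removed, below Cenpf (1.55) and Nuf2 (1.53). Kif18a also had the lowest level of the 54 genes in each group, with 0.52 ± 0.0424, 2.93 ± 0.318 and 8.95 ± 0.170 TPM. Its relative Kif18b had 35.1 and 42.6 CPM in shScr and 38.6 and 39.1 in shPkm1. These overlapped, with a log2 fold change of 0.00 (SE 0.115, edgeR adjusted p 0.999), and the shPkm2-labelled libraries stood at 128 and 115 CPM, 1.64 above shScr (edgeR adjusted p 3.30e-08).

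Kif2c, a kinesin that takes microtubules apart at the centromere, was likewise not called in shPkm1. It had 24.3 and 30.8 CPM in shScr, 28.9 and 33.4 in shPkm1, and 122 and 121 in the shPkm2-labelled libraries, with log2 fold changes of 0.17 (edgeR adjusted p 0.247) and 2.13 (edgeR adjusted p 5.88e-09). Without library 2 of shScr the first was 0.36 and called (edgeR adjusted p 0.0133). The other motors and spindle proteins, Kif11 and Kif4 among the motors and Tpx2, Hmmr and Dlgap5 among the spindle proteins, were higher in each contrast, by 0.59 to 1.46 in shPkm1 and 2.29 to 2.90 in the shPkm2-labelled libraries. The 0.59, of Dlgap5, was 0.38 without library 1 of shScr.

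Anaphase genes had the largest median difference between the hairpin groups and the smallest between shPkm1 and shScr. These are Cdc20 and Ube2c, the activator and a ubiquitin-conjugating enzyme of the anaphase-promoting complex, Pttg1 (securin), which it destroys, and Espl1 (separase), which then cuts cohesin. In shPkm1 only Espl1 passed the edgeR test, with 0.78 (edgeR adjusted p 0.000486), so that the share of the 4 genes called higher was close to the 31.8% of all tested genes. All 4 were higher in the shPkm2-labelled libraries, where 33.9% of all tested genes were. Cdc20 (chromosome 4, 118432901 to 118437343) had 36.6 and 47.9 CPM in shScr, 40.5 and 48.3 in shPkm1, and 208 and 206 in the shPkm2-labelled libraries. The first 2 groups of Cdc20 overlapped, at a log2 fold change of 0.07 (SE 0.132, edgeR adjusted p 0.665), and the last was 2.29 above shScr (edgeR adjusted p 5.88e-09) and 2.22 above shPkm1 (SE 0.131, edgeR adjusted p 1.45e-08), the largest direct difference of the 54 genes. It was the 1 gene of the 54 with at least a 4-fold difference there, against 1.91% of all tested genes.

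Ube2c had 59.7 and 69.6 CPM in shScr, 62.7 and 73.5 in shPkm1, and 261 and 236 in the shPkm2-labelled libraries, with 0.07 (edgeR adjusted p 0.599) and 1.94 (edgeR adjusted p 9.35e-09). Pttg1 had 31.6 and 33.8 CPM, 35.5 and 33.6, and 96.8 and 111, with 0.08 (edgeR adjusted p 0.552) and 1.67 (edgeR adjusted p 1.60e-08). Like Cdc20, both overlapped between shScr and shPkm1 and lay clear of them in the shPkm2-labelled libraries. Missing the test does not show equal levels. On the log2(TPM + 1) scale Cdc20, Ube2c and Pttg1 were 0.46 above shScr in shPkm1 and passed (limma adjusted p 0.0221, 0.0112 and 0.00411). On that scale, however, the median of all tested genes was 0.31, and 49% of them were called higher. Cdc20 was at 0.28 without library 2 of shScr and at -0.11 without library 1 of shScr. Cdk1, the kinase partner of cyclin B, was singled out after its values were seen and had 0.06 (edgeR adjusted p 0.650) and 1.87 (edgeR adjusted p 6.71e-09). As a message per length, Ube2c was the most abundant of the 54 genes in each group, with 104 ± 20.6, 142 ± 10.9 and 543 ± 61.4 TPM.

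The central spindle and cytokinesis were represented by the kinesins Kif20a and Kif23, the bundling protein Prc1, Racgap1 and Ect2, which switch on RhoA at the cell equator, and anillin (Anln) of the contractile ring. All 6 were higher in each contrast, against 31.8%, 33.9% and 25.7% of all tested genes. Their medians against shScr were 0.90 in shPkm1 and 2.54 in the shPkm2-labelled libraries. Ect2, the activator of RhoA, had 7.67 and 9.49 CPM in shScr, 21.1 and 20.4 in shPkm1, and 68.5 and 70.6 in the shPkm2-labelled libraries, with log2 fold changes of 1.27 (edgeR adjusted p 2.39e-06) and 3.01 (edgeR adjusted p 2.29e-10). Racgap1, which binds Ect2, started from 95.4 and 101 CPM and reached 127 and 122, and then 320.2 and 297. Its rises were 0.34 (SE 0.0982, edgeR adjusted p 0.00813) and 1.65 (edgeR adjusted p 8.59e-09), the smallest of this function, and the first lost its call without library 1 of shPkm1 (edgeR adjusted p 0.0588) but was 0.54 with library totals and 0.72 on the TPM scale, both called.

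Ordered by their median log2 fold change, the functions ranked differently in each step. In shPkm1 against shScr the order was kinetochore corona (1.51), chromosome structure (1.46), Ndc80 complex (1.39), spindle checkpoint (1.31), inner kinetochore (1.12), central spindle (0.90), spindle motors (0.89), passenger complex (0.66), entry regulators (0.52) and anaphase (0.08). From shPkm1 to the shPkm2-labelled libraries anaphase came first (1.73), then entry regulators (1.58), central spindle (1.56), motors (1.55), checkpoint (1.46), chromosome structure (1.41), inner kinetochore (1.40), corona (1.35), passenger complex (1.34) and last the Ndc80 complex (1.09). Between the shPkm2-labelled libraries and shScr the medians ran from 2.88 for the checkpoint to 2.06 for the passenger complex.

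These functions hold 2 to 9 genes each, and no test was made between them. The ranges of their members overlap for many pairs of functions, but not for all. In shPkm1 against shScr the corona (1.14 to 1.87) lay above anaphase (0.07 to 0.78). Between the hairpin groups the Ndc80 complex (0.40 to 1.29) lay below anaphase (1.43 to 2.22). Anaphase was last in shPkm1 against shScr and first between the hairpin groups in each of the 17 alternatives, and the Ndc80 complex was last between the hairpin groups in each of them. Other ranks moved by at most 6 places. The members spread more against shScr than between the hairpin groups: the SD of their log2 fold changes was 0.581 and 0.597 in the contrasts with shScr and 0.306 in the direct one.

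**Figure D4:**
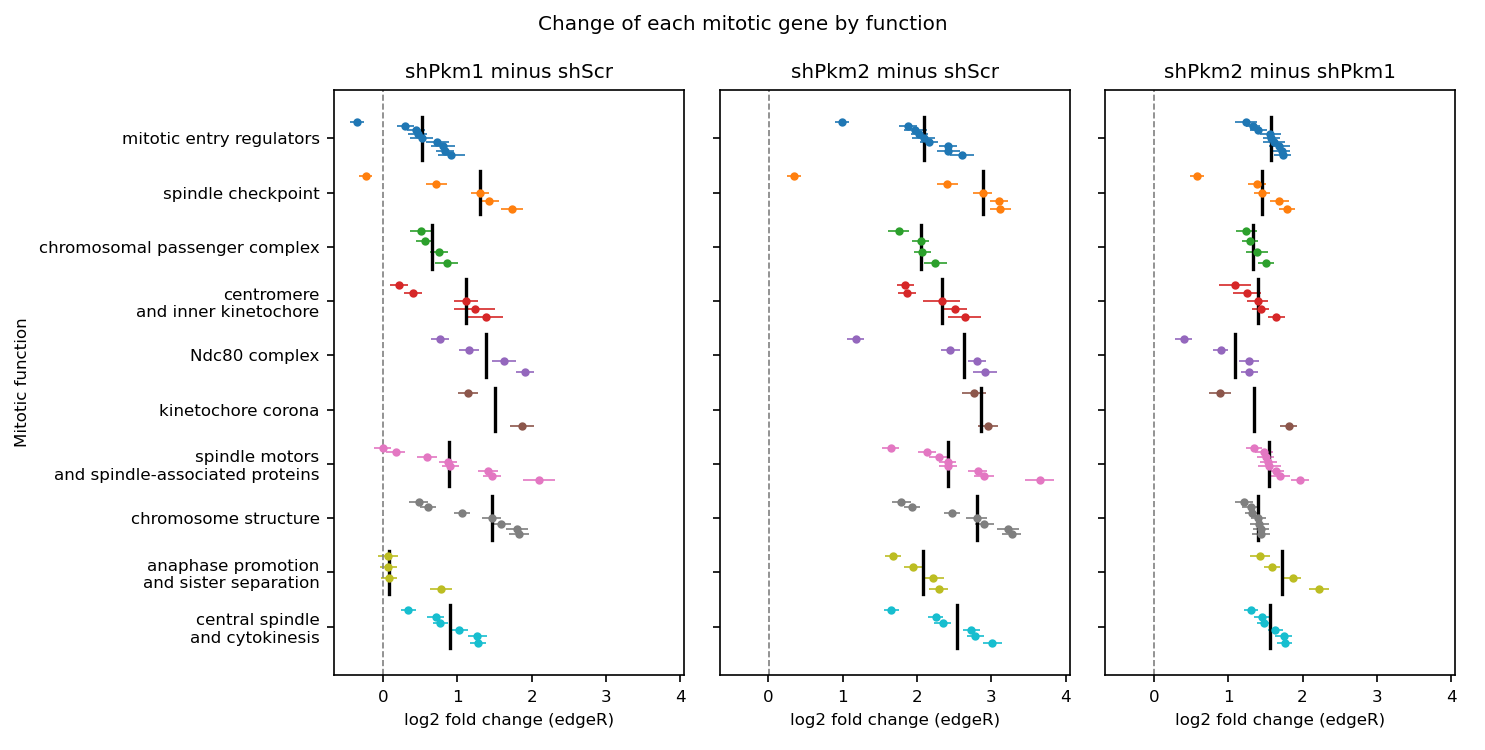
Log2 fold change of each of the 54 genes (points, x axis) by function (y axis) in the 3 contrasts. Horizontal bars are standard errors and black strokes the function's median, which for anaphase is 0.08 in shPkm1 minus shScr and 1.73, the highest, in shPkm2 minus shPkm1.

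The GC content of the genes moved with this order. Across the 54 genes, Spearman's rho between the log2 fold change and the GC content of the longest protein-coding transcript was -0.76 in shPkm1 against shScr, -0.73 in the shPkm2-labelled libraries against shScr, and 0.18 in the direct contrast. Over 12448 tested genes with a GC value it was -0.28, -0.36 and -0.19. The points share their libraries, and the first 2 contrasts share the controls. The 20 genes under 45% GC had medians of 1.42, 2.85 and 1.40 in the 3 contrasts, the 17 genes from 45% to 50% had 0.81, 2.34 and 1.54, and the 17 genes at 50% or more had 0.47, 1.97 and 1.43. Function medians of GC ran from 42.3% for the checkpoint to 55.6% for anaphase. Of the genes not called higher in shPkm1 against shScr, Cdc20, Ube2c, Kif18b, Kif2c and Cdc25b were in the highest of these GC classes. Pttg1 and Cenpn were in the middle class and Bub3 was in the lowest. The part of GC content in the order of the functions was not tested.

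GC content also went with differences between libraries of 1 group: over all genes, rho with the difference of library 2 from library 1 was 0.47 in shPkm1, 0.14 in shScr and 0.06 in the shPkm2-labelled libraries. With a smooth GC trend over all genes removed from each library, an alternative chosen after seeing the data, 45, 53 and 54 of the 54 genes were higher in the 3 contrasts in the edgeR test, with medians of 0.77, 2.22 and 1.37. After this removal rho with GC over all genes was -0.01, -0.02 and -0.04, and over the 54 genes it was -0.46, -0.24 and 0.45. The corona stayed first (1.18) and anaphase last (0.25) in shPkm1 against shScr, while the inner kinetochore went from rank 5 to rank 9 (0.47). Between the shPkm2-labelled libraries and shScr the checkpoint stayed first (2.45), anaphase moved from rank 9 to rank 3 (2.36) and the inner kinetochore became last (1.73). In shPkm1 against shScr, Bub1, Mad2l1 and Ect2 were then at 0.85, 0.91 and 0.76, still called. On the log2(TPM + 1) scale, where the median of all genes was 0.31, several small rises in that contrast were larger, with 0.82 for Plk1, 0.75 for Cenpa, 0.91 for Ccnb2, 0.90 for Incenp, 0.92 for Dlgap5 and 0.96 for Ncaph.

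**Figure D5:**
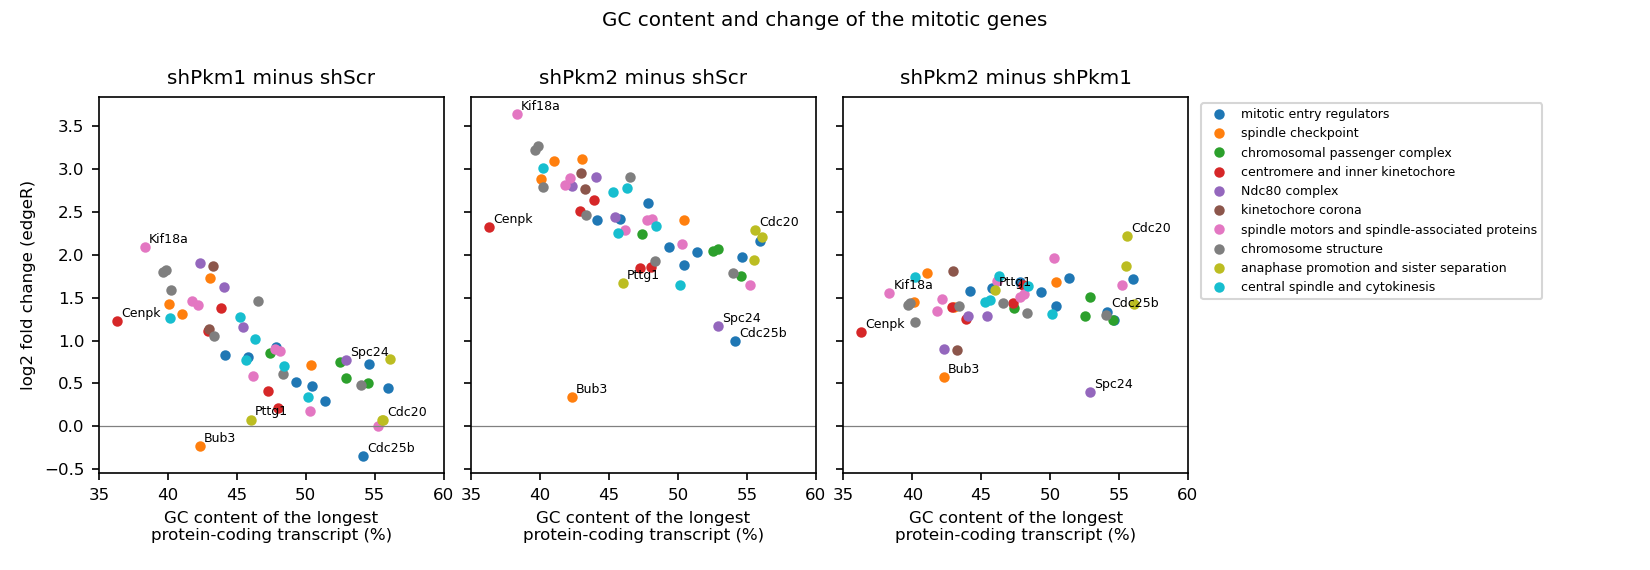
Log2 fold change (y axis) of the 54 genes against the GC content of their longest protein-coding transcript (x axis, %), coloured by function, in the 3 contrasts. The points fall from left to right in both contrasts with shScr (rho -0.76 and -0.73) and not in the direct contrast (0.18).

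As levels per length, the 54 genes spanned 0.52 to 104 TPM in shScr with a median of 10.7, 2.93 to 142 with a median of 27.6 in shPkm1, and 8.95 to 543 with a median of 74.0 in the shPkm2-labelled libraries. Only Ube2c was above 100 TPM in shScr and in shPkm1, while 17 genes were in the shPkm2-labelled libraries. In shScr, 26 genes were under 10 TPM, among them Kif18a, Cenpf, Cenpk, Cenpi and Ncapg at the bottom, and in the shPkm2-labelled libraries only Kif18a was. The most abundant after Ube2c in the shPkm2-labelled libraries were Pttg1, Birc5, Cdc20, Racgap1 and Top2a, with 301, 254, 226, 201 and 183 TPM. Counts of Ccnb1, Ccnb2 and Kif4 are less certain than the rest, since the reference lists pseudogene copies of each with which reads could be shared.

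A further 91 genes of mitosis outside this list were read for comparison. In shPkm1 65 of them were higher and 7 lower (71.4% and 7.69%), in the shPkm2-labelled libraries 78 and 1 (85.7% and 1.1%), and in the direct contrast 75 and 1 (82.4% and 1.1%), with medians of 0.68, 1.59 and 0.91. Over all tested genes, 31.8%, 33.9% and 25.7% were higher and 31.4%, 34.2% and 27.3% lower in these contrasts. Among other kinetochore and checkpoint genes Knl1, the platform for Bub1 and Bub3, was one of those with the largest rises in the shPkm2-labelled libraries, with 3.15 (edgeR adjusted p 4.49e-10). The lowest values were -0.14 for Mad2l1bp and 0.02 for Mad1l1, neither of which passed the test. Among spindle and cytokinesis genes Kif20b and Kif15 rose by 3.11 and 3.01, and Septin9 and Rhoa, which cells also use outside mitosis, had 0.05 and 0.08 with no call. Among entry, exit and cohesion genes Fbxo5, an inhibitor of the anaphase-promoting complex, and Esco2, a cohesin acetyltransferase, rose by 2.95 and 2.78. The subunit Anapc10 of that complex fell by 0.67 (edgeR adjusted p 8.25e-05), and Anapc11 had 0.02 with no call.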

How the data were processed

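RNA was sequenced in 6 libraries, 2 per group, and groups and replicate numbers come from their titles. The table lists 57920 transcripts. The deposited estimated counts are neither rounded nor normalised. The deposited TPM values allow for transcript length and add up to the same total in each library. FPKM values that the authors deposited beside them were not used. Per the submitters' processing notes the tools were HISAT, StringTie, Bowtie, RSEM and DESeq2 and the build mm10, with no role given. Strandedness is not given in the sources used here. The 9 columns of the authors' group means were not used.

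Estimated counts and TPM were summed per NCBI gene. Counts were rounded and tested with edgeR 4.0.16 (R 4.3.3): filterByExpr (minimum count 10, minimum total 15), TMM scaling, 1 coefficient per group over all 6 libraries, the two-sided quasi-likelihood F-test, Benjamini-Hochberg adjustment over 12643 genes and a threshold of 0.05. CPM uses TMM-scaled library sizes, and the SE is the absolute log2 fold change over the root of F. The fit was also run on simulated counts in which far fewer genes changed than were called here, so that run does not probe the scaling. With 2 libraries in each group, the smallest exact permutation p is 0.333, so single values were not tested in that way. GC content came from the longest protein-coding transcript of each gene in GENCODE for GRCm38, and promoters from RefSeq (GRCm38.p6). The 113 genes with no symbol held at most 0.148% of a library's counts.

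The members and all lists were chosen with earlier results of these data known. Genes not given singly enter the counts and their function's median. Those given in full are the largest and smallest rise of each function in shPkm2 minus shScr, Mki67, Plk1, Aurkb, Cdc20 and Ccnb1, and each gene not called higher in a contrast. Of each further list the 2 largest rises and the 2 lowest values are named, except 1 gene that is not reported here. The 17 alternatives were other size factors, library totals, other filters, DESeq2 1.42.0, fits of 2 groups, a replicate block, leaving out each library, limma 3.58.1 on log2(TPM + 1) and log2(TPM + 0.1), and, added after seeing the data, removal of a GC trend (lowess, span 0.3). Counting error and the spread of 2 libraries limit the precision.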

Additional observations from a re-analysis of the deposited data

How the results depend on the processing

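The direction of the mitotic genes as a set held under all 17 alternatives in each contrast: 42 to 52, 53 to 54 and 53 to 54 of the 54 genes were called higher in shPkm1 minus shScr, shPkm2 minus shScr and shPkm2 minus shPkm1. In shPkm1 the median of 0.82 was between 0.66 and 1.05 when 1 library was left out, with 1.05 without library 2 of shScr, and the count of 2-fold rises was 20 to 29. On the TPM scale this median was 1.11 (pseudocount 1, with or without the filter) and 1.21 (pseudocount 0.1), with 35 genes at 2-fold in each, and 13 genes reached it with the GC trend removed. For shPkm2 minus shScr the median was 2.70 with library totals, and 2.64, 2.80 and 2.64 on the TPM scale. These scalings also moved the median of all genes, by 0.19 and 0.33 with library totals and by 0.31 and 0.36 on the log2(TPM + 1) scale. Relative to that shift the members' medians were 0.81 and 2.36, and 0.80 and 2.28. Of all calls, 65.8%, 69.3% and 61.3% were then higher with library totals, and 78.1%, 75.7% and 53.8% with log2(TPM + 1), against 50.3%, 49.8% and 48.4%.

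Single genes changed sign mainly in shPkm1. On the TPM scale Cdc25b was at 0.044, 0.046 and 0.044 and Bub3 at 0.15, 0.16 and 0.15. Kif18b, at 0.00, was at 0.19 with library totals, 0.014 with no filter, 0.012 with a mean of at least 50 counts, 0.0099 in the fit of 2 groups, 0.37, 0.39 and 0.37 on the TPM scale, 0.18 with the GC trend removed, and from -0.13 to 0.15 with 1 library left out. Leaving out 1 library gave -0.11 to 0.28 for Cdc20 and -0.045 to 0.19 for Ube2c. With the GC trend removed Pttg1 was at -0.092, and Bub3 in shPkm2 minus shScr at -0.16. The cause was not tested.

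The replicate numbers do not pair the libraries: differences of same-numbered libraries correlated across genes at -0.03, 0.04 and 0.05. With the number as a replicate block 46, 54 and 54 genes were higher, with medians of 0.82, 2.38 and 1.45. It moved Kif18b to 0.0011 and ended the call of Bub3 in shPkm1 (edgeR adjusted p 0.057), and changed no other call of the 54 genes.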

Other observations

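Genes that copy DNA before mitosis rose as well. Of 49 replication genes, 31, 49 and 48 were higher in shPkm1 minus shScr, shPkm2 minus shScr and shPkm2 minus shPkm1 in edgeR's quasi-likelihood test, and 0 were lower, with medians of 0.56, 1.81 and 1.23. The higher calls were 63.3%, 100% and 98% of the list, against 31.8%, 33.9% and 25.7% of all genes tested. Wdhd1, a replisome scaffold, and Prim1, the primase subunit, rose most in shPkm2 minus shScr, by 2.80 and 2.66 (edgeR adjusted p 3.46e-09 and 4.65e-10). The lowest were Pold2, a subunit of polymerase delta, with 0.45 (edgeR adjusted p 0.00436) and Gins4 with 0.65 (edgeR adjusted p 8.50e-05).

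Of 11 genes of the MuvB core and its partners, whose complexes bind the homology region, 6 were higher and 3 lower in shPkm1 minus shScr, 7 and 2 in shPkm2 minus shScr, and 7 and 1 in shPkm2 minus shPkm1. The higher calls were 54.5%, 63.6% and 63.6% of the list, against 31.8%, 33.9% and 25.7% of all genes tested. The lower calls were 27.3%, 18.2% and 9.09%, all below the 31.4%, 34.2% and 27.3% of all genes tested. Mybl2 (B-Myb), the partner in dividing cells, had 10.97 and 13.2 CPM in shScr, 19.2 and 23.97 in shPkm1, and 55.5 and 55.8 in the shPkm2-labelled libraries, a rise of 2.20 (edgeR adjusted p 9.25e-09). Rbl1 (p107) rose by 1.98 (edgeR adjusted p 1.18e-08). The core subunit Lin37 and the partner E2f4 had the lowest values, -0.69 (edgeR adjusted p 0.000876) and -0.52 (edgeR adjusted p 0.000234).

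The 54 mitotic genes have 169 transcripts in the table, and 44 genes have more than 1. Among these the leading transcript held at least 90% of the gene's TPM in every library in 9 genes and 50% or less in some library in 13. For Cenpk the predicted transcript XM_017315553.1 held 82.1% and 78.2% of TPM in shScr and 0% in both shPkm2-labelled libraries, where XM_006517728.1 held 83.1% and 93.4%. These shares rest on few reads, since Cenpk had 1.14 and 1.64 CPM in shScr, and for Kif18a the 2 shScr libraries assigned all TPM to different transcripts.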
